A study of Mus musculus with 8 samples.

Results

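The nuclei described here are those of lymphatic endothelium in mouse gastrocnemius, a calf muscle. The nuclei were chosen by measured marker counts. A nucleus was taken as lymphatic when its raw counts of Mmrn1, Reln, Flt4 and Prox1 summed to at least 4, at least 2 of the 4 genes were detected, Mmrn1 or Reln had at least 1 count, and Pdgfra (a marker of fibro-adipogenic cells) and Ptprc (a marker of leukocytes) were at 0. The rule found 335 of 47059 nuclei that passed the quality filters in 4 libraries made with 10x Genomics droplets, out of 64803 such nuclei in all 8 libraries of the series. Counts are of unique molecular identifiers (UMIs), tags by which each captured RNA molecule is counted once.

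The study compared wild-type C57BL/6 mice by age and by exercise, and isolated nuclei from their muscle. Young mice were 3 months old and Old mice (labelled aging) 20 months old. Running mice were 11 months old when they began 2 months on a treadmill, and Sedentary mice were the controls of the runners. Each group had 1 10x library and 1 library from a second droplet system. How many mice went into a library is not given in the sources used here, so a difference between 2 groups in the 10x set is a difference between 2 libraries. The second libraries hold too few such nuclei to repeat the comparison of genes, and their shares are given beside those of the 10x set.

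Lymphatic capillaries take up fluid, protein and immune cells from the interstitium, and collecting vessels with valves return them to the blood. Their endothelium is kept apart from that of blood vessels by the transcription factor Prox1, grows in response to VEGF-C through the receptor Flt4 (VEGFR-3), and guides dendritic cells and T cells with the chemokine Ccl21a. Reln encodes an extracellular matrix glycoprotein secreted by lymphatic endothelium, and Mmrn1 encodes multimerin 1.

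The 4 markers of the rule were unevenly spread over the libraries. Mmrn1 summed to 416 UMIs over the Old nuclei, 941 over the Young, 916 over the Running and 43 over the Sedentary ones, and was detected in 94.3% of the 335 nuclei. Reln had 664, 1399, 1397 and 98 UMIs in the same order and was detected in 97.6%. Flt4 was found in 77.0% of the nuclei and Prox1 in 75.2%. All 4 genes were detected in 191 nuclei, 3 in 101 and 2 in 43. The summed marker count had a median of 17 and reached 146. By library, its median was highest in Young (23), followed by Running (18), Old (15) and Sedentary (6). Because these values chose the nuclei they are a description and were not tested.

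At the edge of the rule, 16 nuclei had exactly 4 marker UMIs, of which 7 came from Sedentary, 5 from Old, 3 from Young and 1 from Running. Another 27 nuclei had 3 marker UMIs and otherwise met the rule, 14 of them in Sedentary. Lyve1, a hyaluronan receptor of lymphatic capillaries that the rule did not use, was detected in 2 of the 16 and in 1 of the 27. A further 22 nuclei met the marker limits but were left out for a count of Pdgfra or Ptprc.

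**Figure D1:**
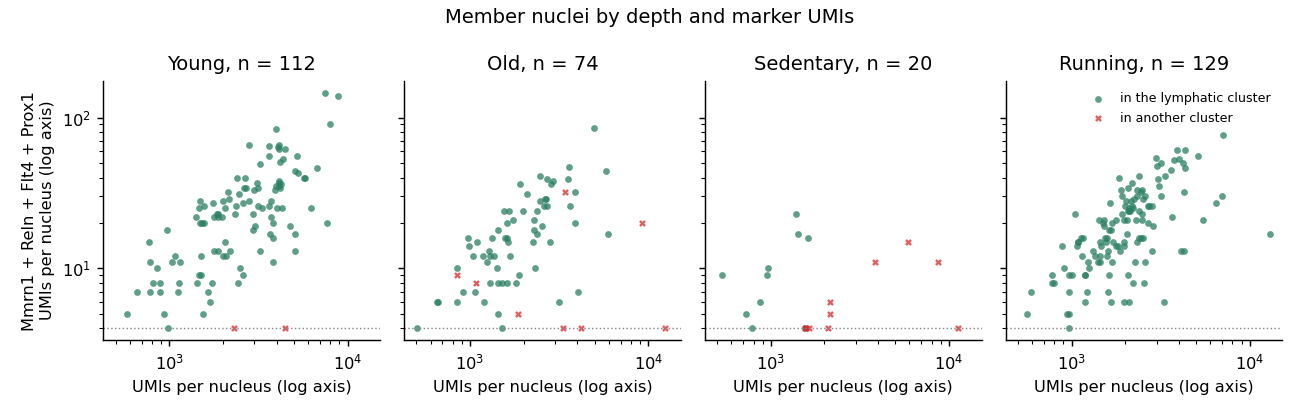
Summed UMIs of Mmrn1, Reln, Flt4 and Prox1 against all UMIs of each lymphatic nucleus, both on log axes, with 1 panel per 10x library and a dotted line at the limit of 4 UMIs. Circles are nuclei inside the lymphatic cluster and red crosses the 20 outside it, of which 10 are in Sedentary, with a median of 4.5 marker UMIs.

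The label was checked against genes outside the rule. When the nuclei were clustered without the genes of the rule, 315 of the 335 (94.0%) fell in 1 of 26 clusters, which held 372 nuclei and none of the blood vascular nuclei defined below. Its leading genes were Ccl21a, Klhl4, Tc2n, Apba2, Pard6g, Pkhd1l1 and Wdr17. Of its 57 other nuclei, 52 had at least 1 UMI of a gene of the rule. Lymphatic nuclei made up 88.0% of the nearest neighbours of a lymphatic nucleus and 0.034% of those of a blood vascular nucleus. Lymphatic markers not in the rule took between 0.308% and 1.09% of the UMIs of the lymphatic nuclei and between 0.0882% and 0.108% of those of blood vascular nuclei.

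The label held less well in the Sedentary library, where 10 of the 20 nuclei lay outside that cluster, against 8 of 74 in Old, 2 of 112 in Young and 0 of 129 in Running. Those 10 held 79.1% of the UMIs of the Sedentary lymphatic nuclei, against 20.8% for the 8 in Old and 2.06% for the 2 in Young. Of the 20 nuclei outside, 13 lay in a cluster led by the gene models Gm10800 and Gm10801, 2 in one led by Cntnap5b and Chl1, 2 in one led by Tmem45b and the adipocyte gene Plin1, and 1 each in clusters led by Ostn, by Opcml with Dpp4 and Pi16, and by Hs6st3 with the muscle stem cell gene Pax7. Their median marker count was 4.5 UMIs in Sedentary and 6.5 in Old, against 9 and 16 for the nuclei inside. Genes of the myofibre list took 3.85% of the UMIs of the Sedentary nuclei outside and 0.899% of those inside. Most of these UMIs outside lay in single nuclei with 854, 380 and 250, while another held only 7. The shares outside and inside were 2.04% and 0.924% in Old, and 0.296% and 1.002% in Young. The group comparisons are therefore also given for the nuclei inside the cluster alone.

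Depth differed between the libraries. The nuclei that passed the filters held between 39208124 and 44389777 UMIs in the Old, Young and Running libraries and 23327640 in the Sedentary library. The median lymphatic nucleus of Young was deepest with 2592 UMIs, ahead of Running with 2014, Old with 1829 and Sedentary with 1571. Between 30 and 46 cell barcodes were shared by each pair of libraries, and none of these belonged to a lymphatic nucleus.

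In the 10x libraries, the share of lymphatic nuclei was lower in Old than in Young and lower in Sedentary than in Running. In the second library of each group, the same rule found few nuclei and turned the first direction, with 9 of 4772 in Old (0.189%, 95% exact binomial interval 0.0863 to 0.358) and 1 of 4510 in Young (0.0222%, 0.000561 to 0.123), and 0 in both Running and Sedentary. Lymphatic nuclei made up 74 of 11686 nuclei in Old (0.633%, 95% exact binomial interval 0.498 to 0.794), 112 of 11795 in Young (0.950%, 0.782 to 1.14), 129 of 12991 in Running (0.993%, 0.830 to 1.18) and 20 of 10587 in Sedentary (0.189%, 0.115 to 0.292). Young and Running had overlapping intervals, and the interval of Sedentary lay below those of the other libraries. The ratio of Old to Young was 0.667 with a counting interval of 0.490 to 0.902, and that of Running to Sedentary was 5.26 (3.27 to 8.89). With a limit of 3 marker UMIs in place of 4, the ratio of Running to Sedentary was 3.24 (2.21 to 4.86), and with a limit of 6 it was 9.26 (5.001 to 19.03). These intervals cover counting error only, and loss of nuclei during isolation cannot be told apart from fewer lymphatic cells.

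For the nuclei inside the cluster alone, Old kept 66 nuclei (0.565%), Young 110 (0.933%), Running 129 (0.993%) and Sedentary 10 (0.0945%). The ratio of Old to Young was then 0.606 (0.439 to 0.829) and that of Running to Sedentary 10.5 (5.54 to 22.4). When each nucleus was thinned to 1000 UMIs and a limit of 2 marker UMIs was used, Running had a share of 1.04%, Young 0.880%, Old 0.620% and Sedentary 0.217%. The order of the libraries by this share was the same as without thinning.

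The balance within the endothelium was read against blood vascular nuclei. These were defined in the same way by Flt1, Emcn, Cyyr1 and Adgrf5, with Mmrn1, Reln and Prox1 at 0, and the rule found 301 of them for Old, 191 for Young, 245 for Running and 193 for Sedentary. Of lymphatic plus blood vascular nuclei, the lymphatic ones were 19.7% in Old (15.8 to 24.1), 37.0% in Young (31.5 to 42.7), 34.5% in Running (29.7 to 39.6) and 9.39% in Sedentary (5.83 to 14.1). The Old library had both fewer lymphatic nuclei and more blood vascular nuclei than Young, at 2.58% against 1.62% of its nuclei. In the Running and Sedentary libraries the blood vascular share was 1.89% and 1.82%, with lymphatic nuclei at 129 and 20. With 1 library per group none of these differences was tested.

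**Figure D2:**
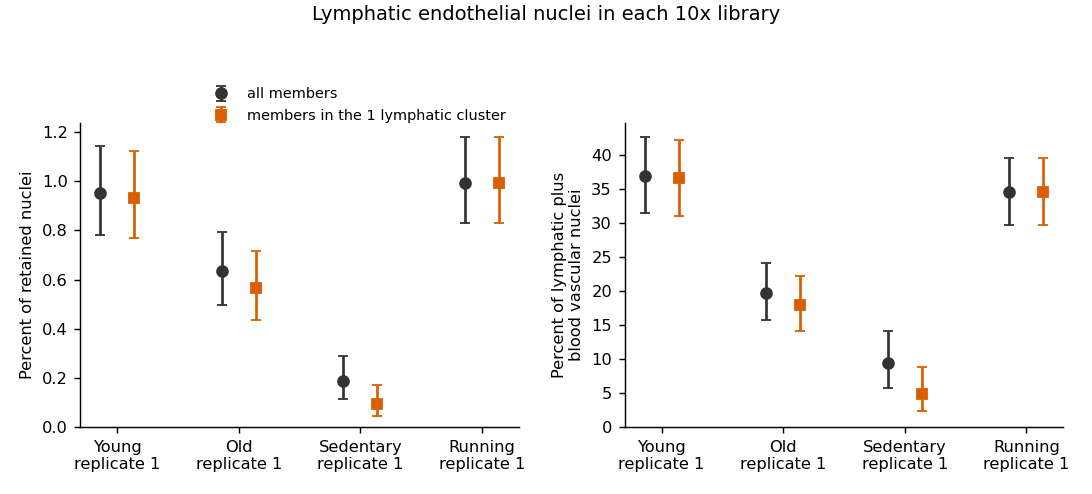
Lymphatic nuclei as a percentage of all nuclei that passed the filters and of lymphatic plus blood vascular nuclei in each 10x library, with 95% exact binomial intervals, for all nuclei of the rule (circles) and those inside the lymphatic cluster (squares). Young and Running lie close together, Old is lower, and Sedentary is lowest on both scales.

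The lymphatic nuclei were then compared with the blood vascular nuclei of the same libraries, to describe which genes set them apart in the same muscle. Counts were summed per library and class, and the 4 pairs were tested with edgeR (quasi-likelihood test, library as a term, Benjamini-Hochberg adjustment). Of 5615 genes tested, 564 (10%) were higher in lymphatic nuclei and 584 (10.4%) lower, together 20.4%. For the nuclei inside the lymphatic cluster alone the counts were 676 and 892, and without the Young library 355 and 370. The 10 genes used to choose either class were left out of the test. A gene list is given by how many of its tested genes were called, to be read against those percentages. A log2 fold change is the lymphatic minus the blood vascular level. The value after ± is a standard error worked back from the test, as the size of the fold change divided by the square root of F. No replicate animals lie behind these p-values, which measure the spread over 4 libraries of different groups.

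Most of the tested lymphatic markers outside the rule were higher. Of 18 such genes, 12 had enough counts to be tested and 11 were higher, with a median log2 fold change of 3.35 against -0.0037 over all genes tested. A gene could pass the count filter through the class where it was high. The blood vascular nuclei were also chosen to have no Mmrn1, Reln or Prox1. The direction of these markers was thus in part set beforehand, and their count is a description. Ccl21a had 143, 989, 210 and 38 UMIs in the lymphatic nuclei of Old, Young, Running and Sedentary, and 5, 2, 0 and 0 in the blood vascular nuclei. Every lymphatic sum lay above every blood vascular sum (log2 fold change 8.35 ± 0.47, edgeR adjusted p = 1.81e-06). Ccl21a (chr4:42772860-42773993, minus strand, GRCm38) has near-identical neighbouring copies in the mouse, and how reads were divided among them is not given in the sources used here, so its level is uncertain. Sema3d, a secreted semaphorin, had 86, 244, 204 and 5 UMIs against 2, 0, 1 and 3 (7.26 ± 0.53, edgeR adjusted p = 4.52e-06). The 5 Sedentary UMIs of Sema3d came within a few counts of the blood vascular value.

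The remaining lymphatic markers were called with smaller differences. Fgl2, a fibrinogen-like protein, had 49, 186, 97 and 9 UMIs in the lymphatic nuclei of Old, Young, Running and Sedentary against 3, 5, 1 and 2 (5.87 ± 0.32). The membrane protein gene Pkhd1l1 differed by 3.97 ± 0.25, the semaphorin gene Sema3a by 4.21 ± 0.46 and the kelch family gene Klhl4 by 3.14 ± 0.39. In Sedentary, Klhl4 had only 4 UMIs against 23 and its difference was 0.24, against 3.18 to 3.75 in the other libraries. Sox18 was not called (0.12, edgeR adjusted p = 0.90). Lyve1 had 57, 190, 124 and 1 UMIs against 2, 1, 1 and 0. It was not tested, because with 1 UMI in Sedentary it did not pass the count filter. Pdpn, which encodes podoplanin, had 40, 79, 37 and 1 against 3, 1, 1 and 1, while Stab2 with 10 UMIs and Efemp1 with 15 were near or below the blood vascular level.

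The start regions of 3 genes with large differences are shown, since Ccl21a and Sema3d were among the genes highest in lymphatic nuclei and Vegfc among the lowest. Each line holds the 250 bases before the annotated start, 5′ to 3′ on the strand of the gene, from RefSeq on GRCm38.p6. The regions are chr4:42773992-42774241 on the minus strand for Ccl21a, chr5:12382916-12383165 on the plus strand for Sema3d and chr8:54077282-54077531 on the plus strand for Vegfc. Capitals mark a match to a searched motif.
Ccl21a: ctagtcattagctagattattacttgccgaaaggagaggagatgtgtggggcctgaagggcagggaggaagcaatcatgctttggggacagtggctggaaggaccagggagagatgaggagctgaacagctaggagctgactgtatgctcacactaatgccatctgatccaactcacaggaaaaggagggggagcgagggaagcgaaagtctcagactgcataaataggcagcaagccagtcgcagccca
Sema3d: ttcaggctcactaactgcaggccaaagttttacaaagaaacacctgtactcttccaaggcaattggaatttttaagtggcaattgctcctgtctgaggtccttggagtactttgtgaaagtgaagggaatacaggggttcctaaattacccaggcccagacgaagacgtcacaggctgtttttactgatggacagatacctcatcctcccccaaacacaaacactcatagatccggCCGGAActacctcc
Vegfc: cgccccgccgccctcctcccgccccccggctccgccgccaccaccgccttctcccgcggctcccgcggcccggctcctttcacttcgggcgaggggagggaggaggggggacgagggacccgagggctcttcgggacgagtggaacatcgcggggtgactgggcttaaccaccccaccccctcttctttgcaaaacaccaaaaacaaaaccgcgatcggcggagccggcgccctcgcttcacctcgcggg
The motifs searched on both strands were AACAAT (SOX factors), AGGTCA (the nuclear receptor site bound by the family of Nr2f2), CCGGAA (ETS factors) and TGTTTAC (forkhead factors). The only match in the 3 windows was CCGGAA in that of Sema3d, whose first base lies 14 bases before the start. No match says only that these letters are not in the window. G and C made up 52.8% of the Ccl21a window, 46.8% of that of Sema3d and 71.6% of that of Vegfc.

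Over whole sets, promoters of the same length were found for 427 of the 564 genes called higher and 433 of the 584 called lower. AACAAT was in 6.27% of the promoters of higher genes, 5.92% of those of lower genes, 5.69% of those of all genes tested and 9.42% of all promoters. AGGTCA was in 10.5%, 12.3%, 10.5% and 14.02% in the same order, and TGTTTAC in 3.22%, 2.08%, 2.26% and 3.17%. CCGGAA was in 8.84% and 9.92% of the promoters of higher and lower genes, against 19.1% of those of all genes tested. The shares of higher and lower genes lay within 2 percentage points of each other for all 4 motifs, and CCGGAA was less frequent in both than among the genes tested. These shares were not tested. The median GC content was 60.2% for higher, 60.0% for lower and 61.2% for all genes tested.

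The genes with the largest differences by the rule for naming were mostly outside the marker lists. Dtx1, a Notch pathway ubiquitin ligase, had 16, 61, 37 and 3 UMIs in the lymphatic nuclei of Old, Young, Running and Sedentary and 0 in all blood vascular nuclei. Against a floor of 3 UMIs over the 4 libraries, it was at least 87.6-fold higher. Sh3gl3, an endophilin gene, had 310 UMIs in all against 2 (log2 fold change 7.94). Slc45a3 (7.09), Apba2 (7.05), Pard6g (6.96), Susd4 (6.47) and Rgs7bp (6.42) completed the named genes beside Ccl21a, Sema3d and Il7. Apba2 and Pard6g encode scaffold proteins, and Susd4 a complement regulator. A gene model that also met the rule is counted and not named.

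Transcription factors divided. Of 22 listed, 16 were tested, with 5 higher and 5 lower. Nr2f2 (COUP-TFII), a venous and lymphatic fate factor, had 70, 157, 180 and 8 UMIs against 38, 36, 39 and 19 (2.64 ± 0.25, edgeR adjusted p = 2.01e-05). Tbx1 differed by 3.56 ± 0.37, Foxp2 by 3.03 ± 0.37, Maf by 1.94 ± 0.20 and Nfatc1, a regulator of lymphatic patterning, by 1.53 ± 0.21. Foxp2 and Maf were not limited to lymphatic nuclei, with 214 and 970 CPM, the UMIs of a gene scaled to a common total, in all other nuclei against 591 and 1107 in lymphatic ones. Lower in lymphatic nuclei were Fli1 (-1.73 ± 0.25), the flow-responsive gene Klf2 (-1.76 ± 0.30), Gata2 (-1.57 ± 0.39), Ets2 (-1.14) and Erg (-0.63), whose call was lost in 8 of 13 alternatives. Without the Running library the calls of Erg, Ets2 and Gata2 were lost, as were those of Erg and Ets2 without Young and of Erg and Gata2 without Old. Foxc2, a valve factor, had 12 UMIs against 3 and was not tested, and 10 of the 12 came from Young.

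The receptor gene Flt4 of the VEGF-C pathway chose the nuclei and was not tested. Of 21 other listed genes, 17 were tested, with 2 higher and 3 lower. The ligand gene Vegfc had 1 UMI in Old and 0 in the other 3 libraries of lymphatic nuclei, against 187, 198, 122 and 117 in the blood vascular nuclei (-7.70 ± 0.50, edgeR adjusted p = 2.53e-06). By its summed counts Vegfc was 278 times lower in lymphatic nuclei, with a counting interval of 49.7 to 10995. The co-receptor gene Nrp2 had 98, 269, 187 and 12 UMIs and was higher (1.04 ± 0.23, edgeR adjusted p = 0.00795), whereas Nrp1, the co-receptor of arterial and capillary endothelium, had 5, 3, 27 and 7 against 634, 732, 398 and 241 (-4.29 ± 0.57). The call for Nrp2 was lost without the Young and without the Running library. Itga9, an integrin needed for lymphatic valves, was higher by 2.77 ± 0.30, and the angiopoietin receptor gene Tek was lower (-1.60). Kdr, which encodes VEGFR-2, was close to level (-0.12, edgeR adjusted p = 0.79).

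Endothelial genes shared by both vessel types were detected but mostly lower. Of 10 pan-endothelial genes, all tested, 7 were lower and 0 higher, with a median of -1.14. Pecam1, an adhesion molecule of endothelial junctions, had 71, 171, 144 and 12 UMIs against 597, 396, 514 and 220 (-1.04). Cdh5 (VE-cadherin) differed by -1.66 ± 0.24 and Ptprb by -2.03. Tie1, Kdr and Eng were not called, and the calls of Egfl7 and Erg were lost without Old, of Mmrn2 and Erg without Young and of Erg without Running. Of 15 blood vascular genes, 4 had been used to choose nuclei, and all 9 of those tested were lower, with a median of -4.43. Because the comparison nuclei were chosen by such genes, which could pass the count filter through them alone, this direction was largely set beforehand. Vwf, the clotting factor carrier, had 4 UMIs against 628 (-6.05). Sox17, an arterial transcription factor, had 0 UMIs in lymphatic nuclei against 208, at least 30.9-fold lower.

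Junction genes did not move as 1 group. Of 13 tested, 2 were higher and 8 lower. Cldn5, the main claudin of endothelium, had 73, 106, 96 and 7 UMIs in the lymphatic nuclei of Old, Young, Running and Sedentary against 88, 41, 48 and 15 (1.76 ± 0.19, edgeR adjusted p = 5.78e-05), and F11r (JAM-A) was higher by 0.86 ± 0.20. Jam2 had 0, 0, 1 and 2 UMIs against 269, 217, 193 and 83 (-6.64 ± 0.58). Its relatives Esam (-4.96 ± 0.41) and Jam3 (-4.01 ± 0.35) were lower in the same way. Jam2, Jam3 and Esam thus stood opposite to F11r within the same family of adhesion molecules. The junction scaffold genes Afdn (-1.98), Tjp1 (-0.90) and Ctnnb1 (-0.87) were also lower. The calls of F11r and Tjp1 were lost without the Young library, those of F11r and Ctnnb1 without Running, and that of Ctnnb1 without Old.

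**Figure D3:**
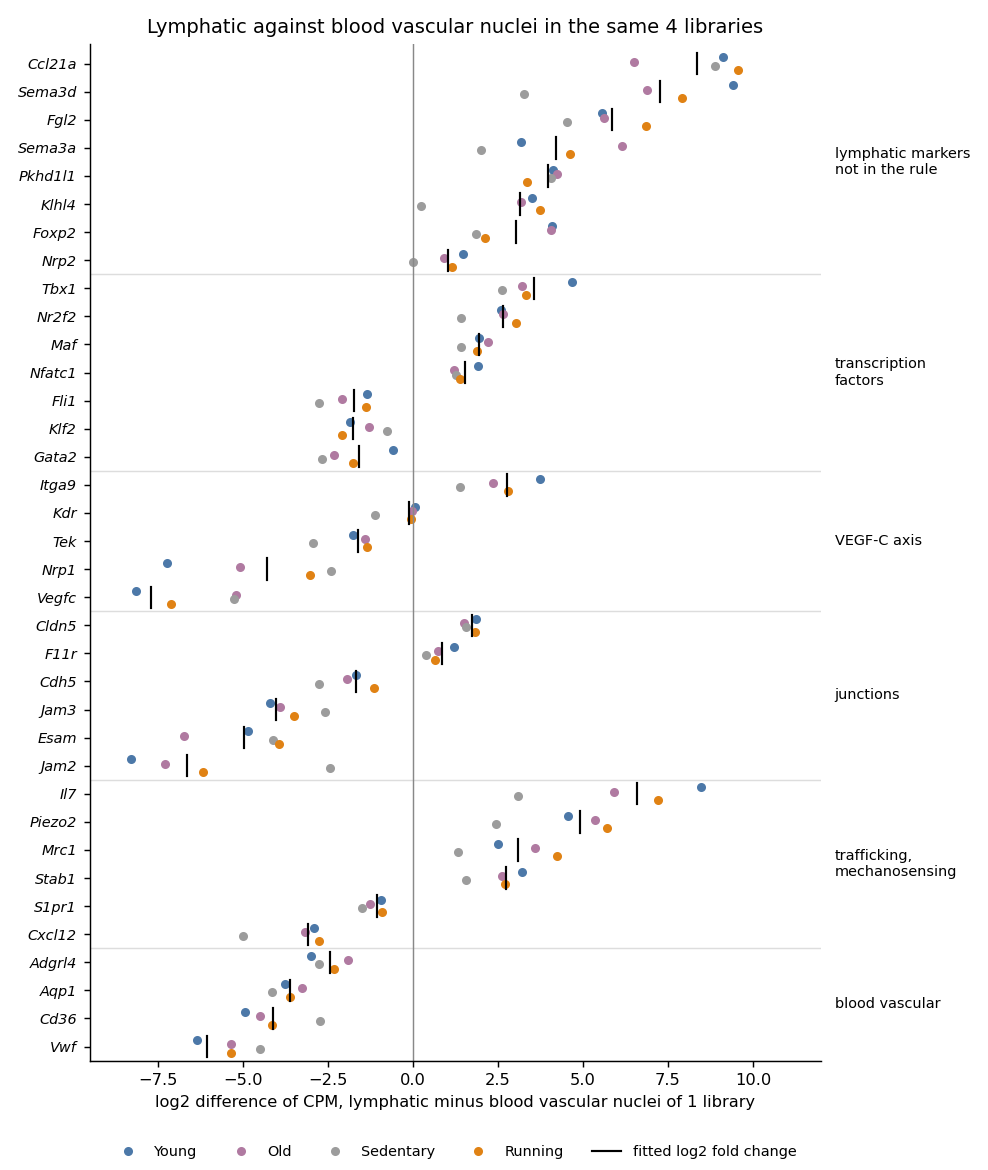
Differences between lymphatic and blood vascular nuclei for genes of 6 lists, as the log2 difference of CPM, with 1 point per 10x library and a bar at the fitted log2 fold change. Ccl21a lies to the right in all 4 libraries, between 6.49 and 9.55, and Vegfc to the left in all 4, between -8.14 and -5.18.

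Genes of valves and collecting vessels gave a mixed picture. Of 18 listed, 10 were tested, with 3 higher and 2 lower. Piezo2, a mechanically gated ion channel better known from sensory neurons, had 194, 441, 454 and 8 UMIs in the lymphatic nuclei against 16, 26, 15 and 9 (4.91 ± 0.40, edgeR adjusted p = 8.74e-06). It was detected in 70.3% of Old, 78.6% of Young, 80.6% of Running and 6 of 20 Sedentary lymphatic nuclei, and in 3.65% to 5.24% of blood vascular and 1.22% to 2.35% of myonuclei. After thinning to 1000 UMIs, the lymphatic shares were 56.9%, 55.0%, 69.2% and 14.3%, and no blood vascular share exceeded 4.80%. Median depths were 1216 to 1894 UMIs for blood vascular nuclei and 1938 to 3785 for myonuclei. Sema3a and Notch1 (0.74 ± 0.20, lost in 7 of 13 alternatives, among them without Old, without Young and without Running) were the other higher genes, and the semaphorin receptor gene Plxnd1 (-3.08 ± 0.39) and Fat4 (-1.63) were lower. The claudin gene Cldn11, with 10 UMIs against 0, was too sparse to be tested and at least 7.48-fold higher.

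Immune trafficking genes went both ways. Of 17 listed, 10 were tested, with 4 higher and 3 lower. Il7, a cytokine that maintains lymphocytes, had 61, 126, 123 and 3 UMIs against 3, 0, 1 and 2 (6.58 ± 0.47, edgeR adjusted p = 4.48e-06). Mrc1, the mannose receptor, was higher by 3.11 ± 0.39 and Stab1, a scavenger receptor, by 2.75 ± 0.25. Ackr2, a decoy receptor for inflammatory chemokines, was found in 72 lymphatic nuclei with 85 UMIs against 1, with a ratio of 191 (counting interval 33.3 to 7625). It was not tested, and no Sedentary nucleus held a count of it. Lower were the chemokine gene Cxcl12 (8, 11, 11 and 0 UMIs against 264, 120, 138 and 98, -3.08 ± 0.29), S1pr1 (-1.05) and Sema7a (-6.23). Vcam1 had 2 UMIs against 162 and Cd274 (PD-L1) 3 against 73, both below the filter for the test.

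Metabolic genes were mainly not called. Of 11 fatty acid genes tested, 3 were lower and 0 higher. All 3 were uptake or binding proteins of capillary endothelium: Cd36 with 67 UMIs in all against 3100 (-4.11), Fabp4 with 43 against 2960 (-4.59) and Fabp5 with 0 against 113, at least 16.8-fold lower. No oxidation enzyme that was tested was called, and 3 of the 14 listed genes were not tested. Of 9 glycolysis genes tested, Ldha and Pfkm (-0.70) were lower, and the call of Pfkm was lost without Old, without Young and without Running. Ldha, a lactate dehydrogenase subunit that makes lactate from pyruvate, had 5, 13, 13 and 1 UMIs in lymphatic nuclei against 49, 36, 52 and 17 (-1.14 ± 0.28, edgeR adjusted p = 0.0136), and the call was lost with DESeq2 and without the Old, the Young or the Running library. None of 7 tested enzymes of lysine lactylation was called, as with Ep300 (-0.06) and Crebbp (0.05), which write the mark. Of the senescence list 3 genes could be tested. Timp2, a metalloproteinase inhibitor, was higher (2.54 ± 0.23), and Igfbp3 (-3.13) and Igfbp7 (-4.30 ± 0.26) were lower. Cdkn2a had 0 UMIs in lymphatic nuclei and 2 in blood vascular nuclei, and Cdkn1a 5 and 14.

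Genes of other cell types were read as a check of the nuclei. Of 12 myofibre genes, 4 were lower in lymphatic nuclei, namely Acta1, Ckm, Myh2 and Mybpc1, and 8 were not called. Their summed share of UMIs was between 0.988% and 3.23% in lymphatic nuclei and between 1.53% and 2.996% in blood vascular nuclei. Both mural genes tested, Rgs5 (-6.56) and Abcc9 (-1.14), were lower. Leaving out 1 library ended the calls of Acta1 (without Old, Young or Running), Ckm (without Young or Running), Mybpc1 (without Old) and Abcc9 (without Running). None of 4 fibro-adipogenic genes and the 1 immune gene tested were called. The part of these genes in the other results was not tested.

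The genes with the largest differences in the other direction, by the rule for naming, were of several kinds. Mecom, a transcriptional regulator, had 22 UMIs in lymphatic nuclei against 6866 (-6.89 ± 0.45). Zfp366 had 1 against 721, a ratio of 321 with a counting interval of 57.5 to 12702. Slc1a1 with 0 against 218 was at least 32.4-fold lower, Adgrg1 with 0 against 176 at least 26.1-fold, Slc26a10 with 0 against 169 at least 25.1-fold, Sema3g with 0 against 162 at least 24.1-fold and Tcf15 with 0 against 140 at least 20.8-fold.

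Levels in the lymphatic nuclei were next compared between Old and Young. Of 4688 genes with at least 20 UMIs over both libraries, 375 (8%) had a CPM at least 2-fold higher in Old and 321 (6.85%) at least 2-fold lower, together 14.8%. Among the nuclei inside the cluster, 226 of 4304 genes (5.25%) were past 2-fold higher and 300 (6.97%) lower, together 12.2%. With 1 library per group no gene was tested, and the counts describe these libraries. Scaling by TMM factors, which correct for composition, moved the median log2 ratio of all genes from -0.05 to -0.18.

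Ccl21a was lower in Old than in Young both by its summed level and by the number of nuclei in which it was found. It had 828 CPM in Old (exact Poisson interval 698 to 975), 3050 in Young (2863 to 3246), 712 in Running (619 to 815) and 742 in Sedentary (525 to 1018). Over all lymphatic nuclei, the Young interval lay above the other 3, which overlapped. Inside the cluster, Sedentary had 1594 CPM from 17 UMIs, and its interval (928 to 2552) lay above that of Running (619 to 815). The Young interval there (2923 to 3314) lay above both. Among single nuclei, the median was 7 UMIs in Young, 1 in both Old and Running and 0.5 in Sedentary, and the highest count was 53 in Young and at most 10 elsewhere. More than 5 UMIs were found in 7 of 74 Old, 64 of 112 Young, 6 of 129 Running and 3 of 20 Sedentary nuclei. For the nuclei inside the cluster, Ccl21a had 941 CPM in Old against 3114 in Young, a log2 ratio of -1.72 and a ratio of 0.303 with an interval of 0.250 to 0.363. Blood vascular nuclei had a log2 ratio of 0.76 from 5 and 2 UMIs, and all other nuclei 0.14.

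The order of Young above Old was the same after thinning. Thinning to 1000 UMIs left out shallower nuclei and kept 65 of the Old, 100 of the Young, 117 of the Running and 14 of the Sedentary ones. Ccl21a was then detected in 50.8% of Old, 76.0% of Young, 44.4% of Running and 21.4% of Sedentary lymphatic nuclei. Without thinning, the shares were 62.2%, 82.1% and 65.1% for the first 3 and 10 of 20 for Sedentary, against at most 1.66% of blood vascular nuclei and 1.21% of myonuclei. Those comparison nuclei had medians of 1216 to 1894 and 1938 to 3785 UMIs. Young is also the youngest group, and age and library cannot be told apart.

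**Figure D4:**
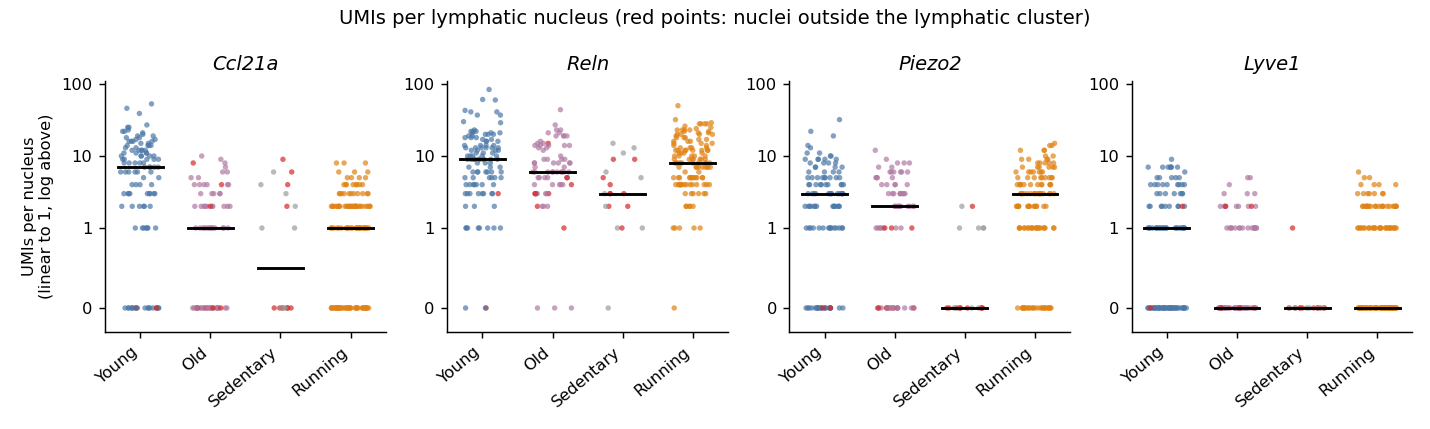
UMIs of Ccl21a, Reln, Piezo2 and Lyve1 in each lymphatic nucleus by 10x library, on an axis that is linear to 1 and logarithmic above, with a bar at the median and red points for nuclei outside the lymphatic cluster. For Ccl21a, 64 of 112 Young nuclei hold more than 5 UMIs, against 7 of 74 in Old and 6 of 129 in Running.

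The markers of the rule differed less between Old and Young. For the nuclei inside the cluster, the log2 ratio of Old to Young was -0.08 for Mmrn1, 0.06 for Reln, -0.17 for Flt4 and -0.58 for Prox1, a description since these genes chose the nuclei. Lyve1 had a log2 ratio of -0.60, with 53 UMIs in Old and 188 in Young and a ratio of 0.658 with an interval of 0.472 to 0.890. Piezo2 (1393 against 1388 CPM), Nr2f2 (467 against 494) and Il7 (438 against 397) were close to level, with ratios whose intervals held 1. Of 15 lymphatic markers outside the rule, 0 were past 2-fold higher and 3 lower, against 5.25% and 6.97% of all genes inside the cluster. Their median was -0.23 against -0.01 for all genes.

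Several endothelial genes were lower in Old among the nuclei inside the cluster. These, and the higher genes that follow, were chosen after their values were seen. Efnb2, a ligand needed for lymphatic valves and remodelling, had 13 UMIs in 10 Old nuclei and 131 in 50 Young nuclei (log2 ratio -2.07, ratio interval 0.119 to 0.407). The same ratio was -0.64 in blood vascular nuclei. The immune regulator gene Fgl2 had 32 against 186 UMIs (-1.31), the transcription factor genes Sox18 8 against 48 (-1.30) and Fli1 56 against 267 (-1.03), and the cadherin gene Cdh13 40 against 304 (-1.70). Celsr1, a planar polarity gene of valves, had 4 against 34, Pdgfb 1 against 26 and the adaptor gene Shb 2 against 32. None of 10 pan-endothelial genes was past 2-fold in either direction, against 12.2% of all genes, with a median of -0.36. The medians of the junction (-0.30), VEGF-C axis (-0.28), transcription factor (-0.24) and valve (-0.17) lists also lay below that of all genes (-0.01). The blood vascular and immune trafficking lists did not fall. Of 7 blood vascular genes with at least 20 UMIs, 1 was past 2-fold higher and 1 lower. Their median was 0.75, and 2 lay below 0. Of 9 immune trafficking genes, 2 were past 2-fold higher and 1 lower, with a median of 0.15.

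All 3 genes of the fibro-adipogenic list with at least 20 UMIs inside the cluster (Dcn, Smoc2 and Abca8a) were past 2-fold higher in Old, against 5.25% of all genes. Below that limit, Col1a1 had 2 UMIs in Old against 6 in Young and Col3a1 5 against 10. Dcn, which encodes the proteoglycan decorin, had 54 UMIs in 31 Old nuclei and 15 in 13 Young nuclei inside the cluster, a log2 ratio of 3.03, against 1.69 in blood vascular and 0.998 in all other nuclei. Gsn, which encodes gelsolin, had 144 in 48 nuclei against 41 in 32 (3.01, ratio 8.07 with an interval of 5.72 to 11.8), against 2.20 and 1.37. Smoc2 had 17 against 3 UMIs (3.53, against 2.58 and 0.38), Abca8a 17 against 6 (2.64, against 1.76 and 0.72) and Lama2, a basement membrane laminin, 17 against 4 (3.17, against 0.53 and 0.16). The summed fibro-adipogenic list took 0.0955%, 0.0147%, 0.0427% and 0.0136% of the UMIs of the lymphatic nuclei of Old, Young, Running and Sedentary, and 0.0839%, 0.0335%, 0.0353% and 0.0207% of those of their blood vascular nuclei. In both classes Old was highest, and the part of fibroblast RNA in the values of Dcn, Gsn and Smoc2 was not tested.

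Several large values in Old came from single nuclei. By the rule for naming, the genes highest in Old over all 74 nuclei included Lsamp, Naaladl2, Dlg2, Ntm, Meg3, Myoc and Cacna1c. Of 165 Lsamp UMIs, 145 lay in 1 nucleus, as did 211 of 226 for Dlg2 and 121 of 129 for Meg3. F13a1, a macrophage gene, had 30 UMIs inside the cluster, of which 26 lay in 1 nucleus. The genes lowest in Old by the same rule were more evenly spread: Ppp1r18 with 1 UMI against 26, Uck2 with 1 against 20, Mtpap with 2 against 33, Shb with 2 against 32, Hdhd2 with 1 against 19, Lrrc8a with 2 against 27, Tm4sf1 with 3 against 37 and Pdgfb with 2 against 26. The 26 Ppp1r18 counts of Young lay in 18 nuclei.

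**Figure D5:**
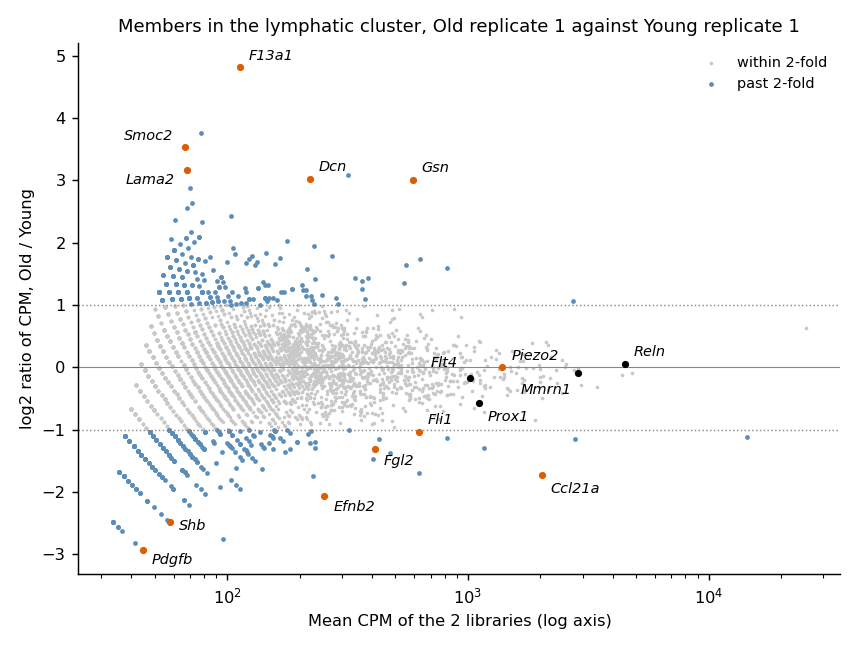
Log2 ratio of CPM of Old to Young against the mean CPM of both libraries (log axis) for genes of the nuclei inside the lymphatic cluster, with dotted lines at 2-fold and 16 genes named. Ccl21a and Efnb2 lie on the side of Young, and Dcn and Gsn on the side of Old.

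Glycolysis and senescence genes were too sparse for most comparisons between Old and Young. Inside the cluster 7 glycolysis genes had at least 20 UMIs over both libraries, of which 2 were past 2-fold higher in Old, against 5.25% of all genes, with a median log2 ratio of 0.96. Over all lymphatic nuclei 4 of 8 were past 2-fold higher and 0 lower, against 8% of all genes for higher, with a median of 0.68. Ldha had 5 UMIs over all Old lymphatic nuclei and 13 over all Young ones, below that limit. Inside the cluster, none of the 4 lactylation genes that reached that limit was past 2-fold, against 12.2% of all genes. Cdkn1a had 2 UMIs in each library.

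Running and Sedentary could be compared only with few nuclei. Of 3574 genes with at least 20 UMIs, 850 (23.8%) were at least 2-fold higher in Running and 360 (10.1%) lower, together 33.9%. The 20 Sedentary nuclei held 51558 UMIs against 297651 in Running. Inside the cluster the split turned over, with 498 genes higher and 659 lower from 10 Sedentary nuclei, and 318 of the 1157 genes past 2-fold were also past it over all nuclei. TMM scaling moved the median log2 ratio of all genes from 0.28 to 0.53.

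By the rule for naming, the genes highest in Running had 0 UMIs in Sedentary. Tnfaip8l3 had 74 UMIs in 42 Running nuclei, Rnf19b 73 in 44, Camkmt 61 in 31, Shroom2 57 in 31, Dipk2b 56 in 35, Cemip2 52 in 32, Jmy 50 in 37 and Prkd2 50 in 32. The genes lowest in Running were Smoc1 with 1 UMI against 35, Erbb4 with 1 against 33, Nrg4 with 1 against 33, Pcsk5 with 1 against 23, Ostn with 1 against 22, Ccdc80 with 2 against 37, Chl1 with 3 against 47 and Ptprd with 4 against 33. Ostn and Chl1 led clusters in which Sedentary nuclei outside the lymphatic cluster lay. Markers of other cell types also differed between the lymphatic nuclei of Sedentary and Running. The adipocyte list took 0.0504% of the UMIs in Sedentary and 0.00806% in Running, the immune list 0.0213% and 0.000672%, the Schwann cell list 0.0155% and 0.00202%, and the myofibre list 3.23% and 1.73%. The fibro-adipogenic list went the other way, with 0.0136% and 0.0427%. The part of these cell types in the gene differences was not tested. In Ccdc80, 36 of the 37 Sedentary counts lay in 1 nucleus, in Nrg4 29 of 33 and in Pcsk5 21 of 23.

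The comparison of lymphatic genes between Running and Sedentary depended on the Sedentary nuclei used. Over all nuclei, the log2 ratio of Running to Sedentary was 1.87 for Mmrn1, 1.30 for Reln, 0.88 for Flt4 and 2.11 for Prox1. Inside the cluster it was 0.22, -0.19, -0.67 and 0.54, and each ratio interval held 1. Ccl21a had a log2 ratio of -0.07 over all nuclei and -1.20 inside the cluster, from 210 and 17 UMIs. Piezo2 had 454 UMIs in Running and 8 in Sedentary, or 6 inside the cluster, with a log2 ratio of 1.34 there (ratio interval 1.25 to 7.50). Lyve1 had 124 UMIs in Running, and in Sedentary 1 over all nuclei and 0 inside the cluster.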

How the data were processed

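Nuclei of mouse gastrocnemius were profiled in 8 libraries, and the rule for lymphatic nuclei covered the 4 10x libraries. The values the authors deposited are filtered matrices of raw counts (UMIs), with 1 value for each gene in each nucleus. Per the labels and the study's methods, reads of these libraries were counted with Cell Ranger 6.1.2 on mm10 and analysed in Seurat 4.1.1. Whether intronic reads and strand were counted is not given in the sources used here.

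The study's quality limits were used, which ask for over 200 genes, below 6000 genes and less than 6% of counts from mitochondria. Doublets stayed in. Scrublet marked between 0% and 4.68% of nuclei per library, with 0% in Sedentary, which does not show that this library held no doublets. An alternative therefore dropped the top 6% of each library by doublet score. CPM and tests did not use mitochondrial or ribosomal protein genes. The members and the gene lists were chosen with earlier results of these data known.

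UMIs were summed per library and class. Lymphatic and blood vascular sums of the same 4 libraries were compared with edgeR 4.0.16 in R 4.3.3 (TMM, filterByExpr, quasi-likelihood test, Benjamini-Hochberg adjustment, threshold 0.05) with the library as a term and 3 residual degrees of freedom. The code was tested on simulated data. The 4 groups had 1 10x library each, so group differences are ratios of CPM (0.5 UMI added, at least 20 UMIs, past 2-fold) with exact counting intervals at 95% and no test. Intervals and floors (3 UMIs) cover counting error only.

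The 21 lists held 222 genes. Named genes were those of the lists, the 10 called genes with the largest change in each direction that went 1 way in all 4 libraries with a log2 CPM of at least 6, Ldha, Lyve1, the rule's markers, and for each pair of groups the 8 genes with the largest ratio in each direction with UMIs in at least 10% of the nuclei of the higher library. A few genes that this rule names are not reported here. Tried beside these were RLE scaling, DESeq2 1.42.0, tests of unfiltered genes, no library term, other marker limits, thinning, no high doublet scores, each library left out, and, chosen after seeing the data, the nuclei of the lymphatic cluster alone. Clusters were made with scanpy 1.11.5. Coordinates are from GENCODE on GRCm38 and start regions from RefSeq on GRCm38.p6, which held 170 of 237 listed and leading genes.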

Additional observations from a re-analysis of the deposited data

Results flagged for a closer look

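The same rule was applied to the second library set, of which the report gives only the shares. In Old replicate 2 it found 9 of 4772 nuclei, or 0.189% (95% exact binomial interval 0.0863 to 0.358), which was noted because a signal appeared in data outside the comparisons. Those 9 nuclei held 33 UMIs of Reln, 8 of Flt4, 4 of Prox1, 2 of Mmrn1, 2 of Ccl21a and 1 of Lyve1. Reln made up most of their marker counts, while in Old replicate 1 Mmrn1 had 416 UMIs beside 664 of Reln. In the whole library Reln had 736 UMIs, of which the 9 nuclei held the 33.

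Young replicate 2 gave 1 of 4510 nuclei (0.0222%), with 3 UMIs of Mmrn1, 1 of Prox1 and none of Reln. Running replicate 2 gave 0 of 4228, which allows a share of up to 0.0710% by the limit of 3 counts (0.0872% by the exact binomial interval), and Sedentary replicate 2 gave 0 of 4234, which allows up to 0.0709% (0.0871%). The median depth of nuclei was between 909 and 1690 UMIs in this set against 1664 to 3001 in the 10x set. The order of the groups in the 10x set was not seen in the second set, where Old was highest, and the part of depth in this was not tested.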

How the results depend on the processing

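The number of genes called between lymphatic and blood vascular nuclei was 1148, and ran from 725 (without Young) to 1641 (without Sedentary) when each library was left out, with 692 and 1123 shared with the 1148. It was 1156 with RLE scaling, 916 with DESeq2, 1613 of 22067 with no filter, 805 of 2633 after thinning and 1568 for the lymphatic cluster alone. Without the library term, which pairs the sums, 988 were called. Of 79 called genes that are named, 63 kept their call in every alternative that gave a value. The other 16 lost it in at least 1 and none changed direction: Abcc9, Acta1, Ckm, Ctnnb1, Egfl7, Erg, Ets2, F11r, Gata2, Ldha, Mmrn2, Mybpc1, Notch1, Nrp2, Pfkm and Tjp1.

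The ratio of Running to Sedentary in the lymphatic share was 5.26, and 3.24 with a limit of 3 marker UMIs, 9.26 with 6 and 10.5 for the cluster alone. Within the endothelium it was 3.67, and 2.37 with 3 UMIs, 6.27 with 6 and 7.002 for the cluster. Both ratios of Old to Young kept their direction in all alternatives on the 10x set. Genes past the fold numbered 696 between Old and Young, and 1637 at 1.5-fold, 1466 with at least 10 UMIs, 244 with at least 40 and 218 after thinning. Between Running and Sedentary they numbered 1210, and 1958, 2170, 627 and 526 in the same order. Other limits and thinning change how many genes are counted by construction. For the cluster alone, Dcn (-0.0343) and Reln (-0.186), both past 2-fold over all nuclei, turned direction between Running and Sedentary. So did Flt4 (-0.675), Gsn (-0.461), Ldha (-0.0343) and Setbp1 (2.74), which were within 2-fold. Dcn and Ldha were close to level there. Their Sedentary sums were few UMIs, and the sign of both values rests on the 0.5 UMI added. Setbp1 had 92 UMIs in Running and 0 in Sedentary inside the cluster, so the size of its value rests on the same addition.

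No paired analysis was possible because the groups had 1 10x library each and the labels number no replicates (1 and 2 here follow deposition order). The comparison of both endothelial classes was paired by library. The 20 Sedentary nuclei, of which 10 lay in the cluster, limit every value of that group, and 1 library per group leaves age, exercise and library inseparable.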

Other observations

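The markers differed in how much of their counts in the 10x libraries lay in the lymphatic nuclei. The lymphatic nuclei held 80.1% of all Mmrn1 UMIs, 74.0% of Ccl21a, 66.2% of Reln, 63.3% of Flt4, 42.3% of Prox1 and 31.8% of Lyve1. For Prox1 the share was 4.63% in the Sedentary library, so most of its Prox1 counts lay in other nuclei. Prox1 was detected in 0.453% to 1.47% of myonuclei and in none of the blood vascular nuclei, whose rule set it to 0.

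Efnb2 was detected after thinning in 27.0% of Young, 20.5% of Running, 6.15% of Old and 14.3% of Sedentary lymphatic nuclei, and in 20.1%, 13.8%, 13.95% and 11.2% of blood vascular nuclei in the same order. The gap between Young and Old was thus wider in the lymphatic nuclei of these libraries, and the difference between the classes was not tested.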
